A study of Mus musculus with 2 samples.

Results

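Melanocytes were taken as the cells that held at least 3 transcripts of Dct and Pmel together, among cells with at least 20 transcripts of quality 20 or more, in 2 sections of mouse skin. The rule found 312 melanocytes among 70658 such cells, out of 92679 cells in all. The WT section held 177 of 33263 kept cells and the Utx-cKO section 135 of 37395. The sections were whole skin of B6/129 females, embedded in paraffin and cut at 5 µm. In the Utx-cKO section Kdm6a, which encodes the histone demethylase Utx, had been deleted by a Krt14-Cre transgene, which is active in keratin-14 expressing epithelia. The WT control is labelled WT only. The sources used here do not state the ages of the animals or whether the control carried Cre. Both sections were read with Xenium, which locates single RNA molecules in the tissue with probes to a panel of 480 genes, and a transcript here is 1 decoded molecule. There was 1 section per genotype, so no difference between genotypes has a replicate check and no p-value is given. The intervals in brackets are 95% intervals that cover counting error only.

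Melanocytes derive from the neural crest and make melanin, which they pass to keratinocytes. In mouse skin most of them, with their stem cells, live in the hair follicle. Mitf is the transcription factor at the head of the pigment programme, and Dct, Pmel and Mlana are among its target genes. Dct encodes dopachrome tautomerase, an enzyme of melanin synthesis, and Pmel encodes the protein that forms the fibrils on which melanin is laid down. Kit and Ednrb are the receptors for stem cell factor and for endothelins, both needed by the melanocyte lineage. Keratin-14 promoters drive Cre in keratinocytes, and melanocytes are not among the cells that the design names as its target.

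The window before the Dct start is shown because Dct supplied most of the transcripts that chose the cells. Mitf is shown because it stands at the head of the programme. Of its 3 windows only that before the third start, shown here, held a motif searched. Both are the 250 bases that precede an annotated start in RefSeq on GRCm38.p6, written 5′ to 3′ along the gene. The Dct window lies at chr14:118052247-118052496 on the minus strand, and the Mitf window at chr6:97991533-97991782 on the plus strand. Capitals mark the M-box TCATGTG, which Mitf binds, in Dct, and the Lef1 motif CTTTGAT followed by the cyclic AMP element TGACGTCA in Mitf.
Dct: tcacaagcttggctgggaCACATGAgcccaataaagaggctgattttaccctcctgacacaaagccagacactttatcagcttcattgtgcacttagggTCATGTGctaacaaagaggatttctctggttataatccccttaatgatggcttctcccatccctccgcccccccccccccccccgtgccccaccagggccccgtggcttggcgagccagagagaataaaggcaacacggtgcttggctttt
Mitf: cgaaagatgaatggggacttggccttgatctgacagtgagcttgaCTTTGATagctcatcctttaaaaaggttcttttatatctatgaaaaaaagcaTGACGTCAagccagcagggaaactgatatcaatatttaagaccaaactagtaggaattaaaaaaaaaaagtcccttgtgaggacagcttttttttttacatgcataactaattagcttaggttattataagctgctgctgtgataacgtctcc
The Dct window held 2 M-box matches, with first bases 232 and 151 bases upstream of the start, the former on the opposite strand. In the Mitf window the Lef1 motif began 205 bases and the cyclic AMP element 153 bases upstream. Both strands were searched. Of 32851 windows of the same length, 3.25% held the M-box, 3.21% the Lef1 motif and 1.55% the cyclic AMP element. The E-boxes CATGTG, which lies within the M-box, and CACGTG were present in 12.3% and 6.02% of windows. Of 10 genes sought, Dct, Kit, Ptgds, Ednrb, Mitf and Tm4sf1 were matched, with 9 windows, and Pmel, Mlana, Phlda1 and Cpe were not. The windows of Kit, Ptgds, Ednrb and Tm4sf1, and those before the other Mitf starts, held none of the motifs searched. These matches describe the letters of the windows only, and no binding was measured.

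Each section held 4 separate strips of tissue, found as connected areas of at least 1000 cells and numbered by their position on the slide. Strips of a section are not replicates of a genotype, since nothing in the labels says whether they came from different animals, and they serve here only to show how even a value is. WT strip 3 stands apart from the other 7 strips in its melanocytes, as the share of cells and the proliferation transcripts below show. Results that rest on it are given with and without it. No transcript of a negative control probe fell in a melanocyte of either section. The sections shared 2 cell identifiers, which are names given separately in each section. The cells had a median of 62 transcripts in the WT section and 48 in the Utx-cKO section when melanocytes and their neighbours were left out, so the Utx-cKO section was the shallower.

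**Figure D1:**
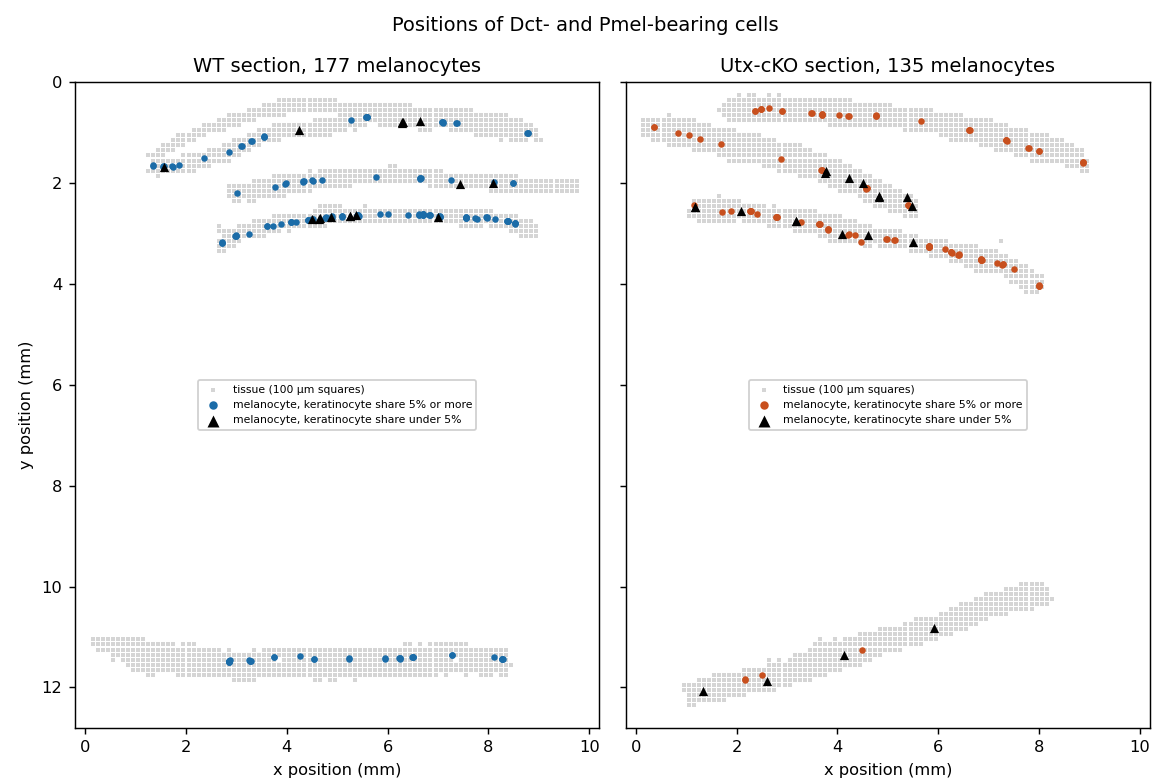
Positions of the melanocytes in the WT section (left, blue) and the Utx-cKO section (right, orange), in mm on the slide, over the tissue in grey squares of 100 µm. Black triangles are the 16 WT and 20 Utx-cKO melanocytes with under 5% keratinocyte markers. The remaining melanocytes lie in all 4 strips of each section, with only 4 of them in Utx-cKO strip 4.

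Melanocytes made up 0.532% of the kept cells in the WT section (0.457 to 0.616) and 0.361% in the Utx-cKO section (0.303 to 0.427). The log2 ratio of Utx-cKO over WT was -0.56 (-0.89 to -0.23). In the WT section the strips held 38, 21, 83 and 35 melanocytes, which were 0.392%, 0.413%, 0.781% and 0.445% of their cells. In the Utx-cKO section they held 35, 26, 66 and 8, which were 0.371%, 0.386%, 0.481% and 0.107%. WT strip 3 was the highest of the 8 strips and Utx-cKO strip 4 the lowest, and the other 6 lay between them with overlapping ranges in the genotypes. Without WT strip 3 the log2 ratio was -0.20 (-0.59 to 0.19). The share also depends on depth, since a shallower cell is less likely to reach 3 transcripts of Dct and Pmel, and the part of depth in the difference was not tested.

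**Figure D2:**
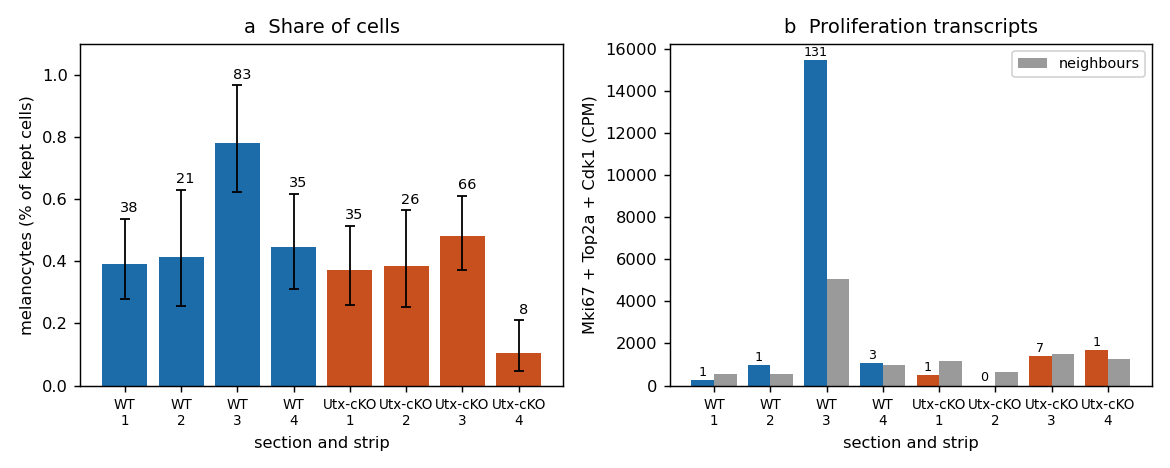
Melanocytes in the 4 strips of each section. Panel a gives their share of kept cells with exact 95% counting intervals and their number above each bar, and panel b the level of Mki67, Top2a and Cdk1 together in melanocytes (coloured, transcripts counted above the bar) and in neighbours (grey), in CPM, counts scaled to an equal total of panel transcripts. WT strip 3 holds 83 melanocytes and 131 of the WT section's 136 transcripts of these 3 genes in melanocytes.

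The values that chose the cells are given as a description. Dct ranged from 1 to 29 transcripts per WT melanocyte with a median of 4, and from 2 to 16 with a median of 5 in the Utx-cKO section. Pmel ranged from 0 to 18 with a median of 1, and from 0 to 7 with a median of 0. Pmel was at 0 in 88 of 177 WT and 72 of 135 Utx-cKO melanocytes, so the cells were mostly selected by Dct. Just inside the limit, 42 WT and 30 Utx-cKO cells held 3 transcripts of both genes together, and just outside it 73 and 62 cells held 2. With a limit of 2 the sections would hold 250 and 197 melanocytes.

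The label was checked against melanocyte genes that the rule did not use. Transcripts were summed over the melanocytes of a section, and a gene's level is given in CPM, its counts per 1000000 counts of all panel genes in those cells. They were set beside those of the 2441 WT and 1785 Utx-cKO cells that were no melanocytes but had their centre within 30 µm of one, called neighbours here. Probes capture different genes with unequal efficiency, so levels of single genes were compared only within a gene. Of 17 melanocyte markers listed, 6 were on the panel, and all 4 besides Dct and Pmel were at least 2-fold higher in melanocytes than in neighbours in both sections. The 64 genes compared were those besides Dct and Pmel with at least 100 counts in the melanocytes of both sections together. Of these, 8 (12.5%) were at least 2-fold higher and 5 (7.81%) at least 2-fold lower in both sections. The minimum was set on the melanocytes' own counts, so genes high in melanocytes passed it more easily. These numbers therefore give no balance of higher and lower genes.

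Mlana, a melanosome protein, had 5369 CPM in WT melanocytes and 239 CPM in neighbours, a log2 ratio of 4.49 (3.95 to 5.05). In the Utx-cKO section it had 3590 and 231 CPM, a log2 ratio of 3.96 (3.16 to 4.78). Kit was at 6048 CPM against 373 CPM in WT, and at 7724 against 500.3 CPM in Utx-cKO, log2 ratios of 4.02 (3.56 to 4.49) and 3.95 (3.41 to 4.49). These were the largest differences among the genes compared, and they were of like size in both sections. Ednrb was 6.42-fold higher than in neighbours in WT and 6.34-fold higher in Utx-cKO. Mitf was 3.10-fold and 3.29-fold higher, with 2842 and 3012 CPM in the neighbours themselves. Ptgds, which encodes a prostaglandin D2 synthase and was not on the list, was 7.65-fold and 12.6-fold higher.

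The remaining 3 genes that were higher in melanocytes were not on the list either. Phlda1, a pleckstrin homology-like domain protein, stood at 4073 CPM in WT and 5331 CPM in Utx-cKO melanocytes, log2 ratios over neighbours of 1.68 and 2.15. Tm4sf1, a tetraspanin-like membrane protein, stood at 3579 and 7398 CPM, log2 ratios of 1.62 and 2.21. In the melanocytes with under 5% keratinocyte markers the smaller of the sections' log2 ratios was -0.17 for Phlda1 and -0.81 for Tm4sf1. These ratios were taken over the neighbours of all melanocytes. Each rests on 1 count, of Phlda1 in Utx-cKO and of Tm4sf1 in WT. In the other section these cells stood above the neighbours. Phlda1 had 3989 CPM in WT, from 6 counts, against 1268 CPM. Tm4sf1 had 3205 CPM in Utx-cKO, from 3 counts, against 1597 CPM. Cpe, which encodes the prohormone processing enzyme carboxypeptidase E, had log2 ratios of 1.22 and 1.24. The 5 genes lower in melanocytes were Postn, Anxa8, Col6a2, Tgfbi and Col5a2, of which Postn, Col6a2, Tgfbi and Col5a2 encode proteins of the extracellular matrix. Postn, periostin, had log2 ratios of -1.51 (-1.74 to -1.29) in WT and -2.92 (-3.50 to -2.40) in Utx-cKO.

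**Figure D3:**
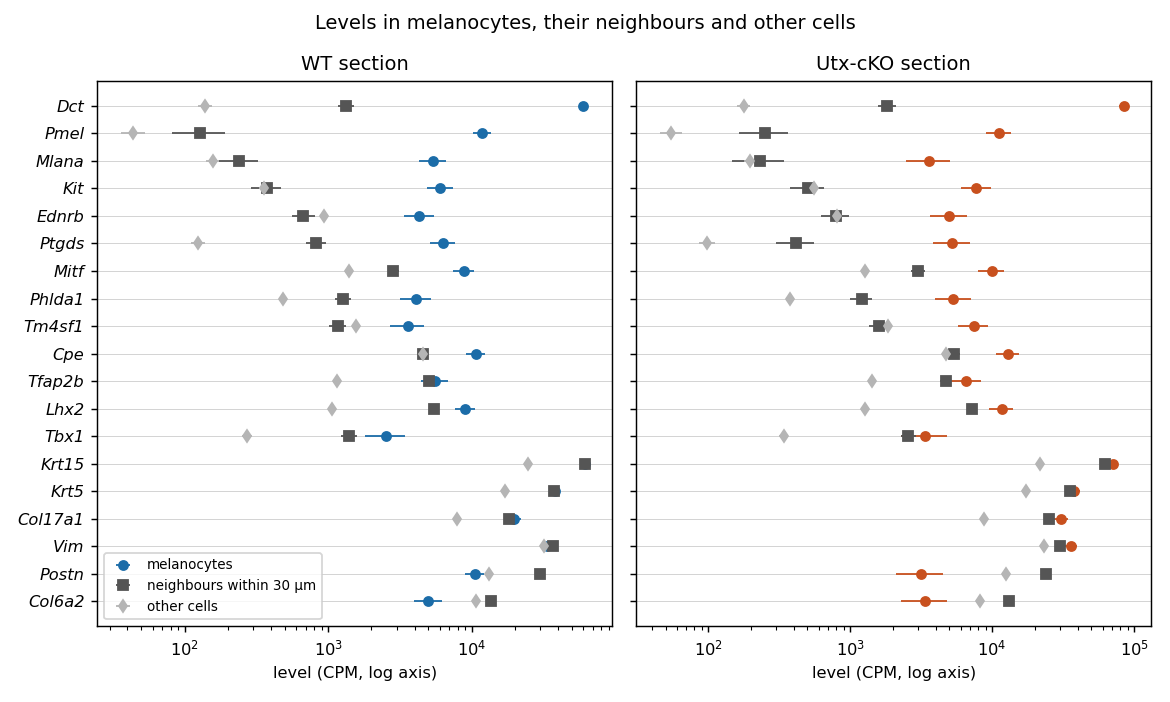
Gene levels in CPM on a log axis, in melanocytes (coloured circles), neighbours within 30 µm (dark squares) and other cells (light diamonds) of each section, with exact 95% counting intervals. Dct and Pmel chose the cells. Mlana, Kit, Ednrb and Ptgds separate melanocytes from neighbours, while Krt15 and Krt5 lie at about the neighbours' level.

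Kit also marks mast cells, whose other markers on the panel are Gata2 and Fcer1a. In WT melanocytes these 2 genes had 1 and 2 counts beside 98 of Kit, and in Utx-cKO melanocytes 0 counts each beside 71. Markers of macrophages made up 0.111% and 0.087% of the melanocytes' transcripts in WT and Utx-cKO, and those of T and NK cells 0.370% and 0.141%. The 4 fibroblast markers made up 0.574% and 0.370%, against 1.70% and 1.61% in neighbours. The 5 sebocyte markers made up 0.278% and 0.577%, against 1.32% and 1.25%. In neighbours macrophage markers made up 0.449% and 0.398%, and T and NK cell markers 0.547% and 0.556%. These 4 lists thus held a smaller share of transcripts in melanocytes than in neighbours.

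Single cells carried few of these transcripts. Of the 5 genes Mlana, Mitf, Kit, Ednrb and Ptgds, at least 1 was detected in 140 of 177 WT melanocytes (79.1%) and in 103 of 135 Utx-cKO melanocytes (76.3%), against 26.5% and 22.4% of neighbours. None was detected in the other 37 and 32 melanocytes. Mlana was seen in 29.9% of WT melanocytes and 1.68% of neighbours, which had medians of 79 and 65 transcripts. In Utx-cKO it was seen in 17.8% and 1.34%, with medians of 64 and 51. With every cell thinned to 20 transcripts the shares were 11.3% and 0.533% in WT, and 6.67% and 0.672% in Utx-cKO, so the order held at equal depth. Dct itself was detected in 8.07% of WT and 8.74% of Utx-cKO neighbours.

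Mlana was set against the number of Dct and Pmel transcripts in a cell. In the WT section Mlana stood at 155 CPM in cells with none, 462 CPM with 1, 1065 CPM with 2, 1688 CPM with 3 and 2674 CPM with 4. It reached 5135 CPM in cells with 5 to 9 and 11700 CPM (8534 to 15656) in those with 10 or more. The Utx-cKO section gave 197, 238, 1061, 2433, 719, 2537 and 8186 CPM for the same steps, with a single Mlana transcript at 4. Kit in WT stood at 349, 756, 608, 2250, 4813, 6715 and 9880 CPM over these steps, and Ednrb at 921, 965, 1065, 844, 1070, 5135 and 9620 CPM. The steps were thus not even: Kit was lower at 2 than at 1, and Ednrb lay near its level in cells without Dct or Pmel up to 4 transcripts. Cells with 2 transcripts thus already held more Mlana than cells with none, and they are left out by the rule. This is a description over cells of 1 section each.

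Keratinocyte signal was measured as the sum of 27 markers on the panel, drawn from lists for the basal, suprabasal and granular layers and for the upper follicle. These markers made up 17.5% of the melanocytes' transcripts in WT (16.9 to 18.1) and 19.2% in Utx-cKO (18.4 to 20.1). Neighbours carried 17.8% and 18.3%, and other cells 14.6% and 15.7%. Melanocytes thus carried about as much keratinocyte signal as the cells around them. Per melanocyte the share ran from 0 to 39.4% with a median of 17.2% in WT, and from 0 to 40.7% with a median of 18.2% in Utx-cKO. No keratinocyte marker at all was found in 6 WT and 12 Utx-cKO melanocytes.

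Nearly all of this signal came from the basal list, with 15.9% of transcripts in WT and 17.8% in Utx-cKO. The suprabasal list gave 0.444% and 0.283%, the granular list 0.111% and 0.120%, and the upper follicle list 1.00% and 1.04%. The panel held 7 basal, 5 suprabasal, 10 granular and 5 upper follicle markers, and probe efficiency differs, so these are shares of counts only. Krt15, a keratin of follicle and basal cells, stood at 61651 CPM in WT melanocytes and 61489 CPM in neighbours, and at 71040 and 61914 CPM in Utx-cKO. Krt5, a keratin of basal cells, stood at 38015 and 37172 CPM in WT, and at 37424 and 35446 CPM in Utx-cKO. Lhx2, a transcription factor of follicle keratinocytes, was higher in melanocytes than in neighbours, at 9010 against 5456 CPM in WT and 11641 against 7197 CPM in Utx-cKO. Levels of genes shared with keratinocytes therefore cannot be assigned to melanocytes in these data.

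The position of the transcripts within the cell outline was compared as well. Over the nucleus alone the keratinocyte share was 16.4% in WT and 17.9% in Utx-cKO, hardly below that of the whole cell. Of Dct transcripts in melanocytes, 67.8% (64.7 to 70.7) lay over the nucleus in WT and 72.2% (68.9 to 75.3) in Utx-cKO. Kit had 78.6% and 87.3% there, and the keratinocyte markers 53.7% (51.9 to 55.6) and 57.9% (55.5 to 60.2). All genes together had 57.3% and 62.3%. Mlana had 48.3% and 54.5%, and Ednrb 57.1% and 58.7%. Dct and Kit thus lay over the nucleus more often than the keratinocyte markers, whereas the intervals of Mlana and Ednrb included the keratinocyte markers' share. In the neighbours 47.5% and 40.4% of Dct lay over the nucleus. Since Dct chose the cells, this contrast cannot decide where its transcripts belong. Of genes that the rule did not use, Kit, Mitf and Ptgds also had lower shares in neighbours than in melanocytes in both sections. All genes together did too, with 51.4% in WT and 55.7% in Utx-cKO neighbours, as did the keratinocyte markers, with 50.7% and 53.1%. Lower shares in neighbours were thus not particular to the genes named. Kit had 62.7% in WT neighbours and 59.6% in Utx-cKO neighbours. Mlana and Ednrb had higher shares in neighbours in both sections. Mlana had 69.8% in WT neighbours and 58.3% in Utx-cKO neighbours. The outlines are those of the deposited segmentation, and the part of RNA from adjoining or overlying cells was not tested.

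**Figure D4:**
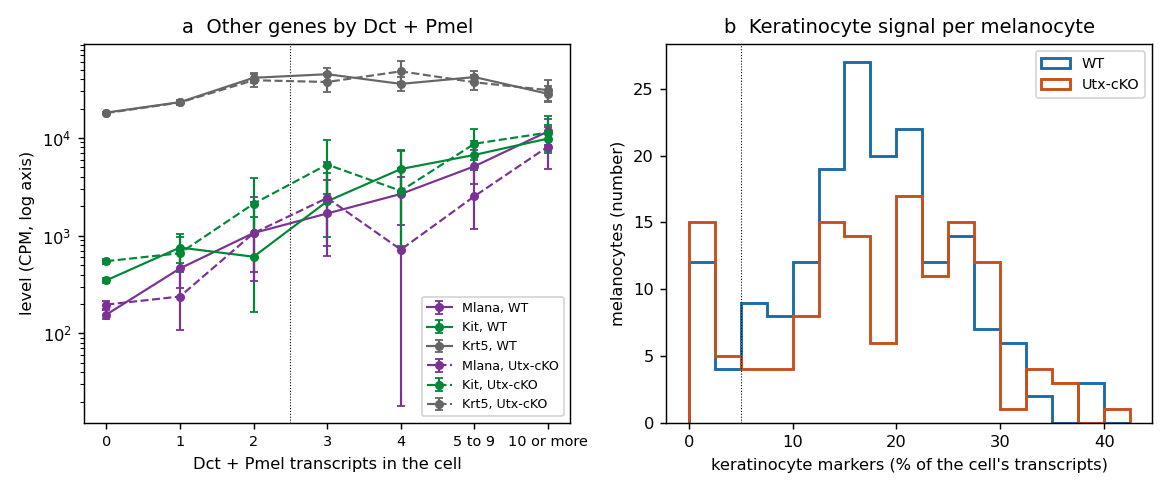
Melanocyte and keratinocyte transcripts by cell. Panel a gives Mlana, Kit and Krt5 in CPM (log axis) with exact 95% counting intervals over cells grouped by their Dct and Pmel transcripts, WT solid and Utx-cKO dashed, with the limit of the rule dotted. Panel b counts melanocytes by their keratinocyte share, with 5% dotted: most lie between 10% and 30%, and 16 WT and 20 Utx-cKO melanocytes lie under 5%.

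The melanocytes were small and lay in groups. Their median cell area was 46.8 µm² in WT and 47.2 µm² in Utx-cKO, against 52.6 and 58.7 µm² in neighbours and 99.4 and 92.5 µm² in other cells. The nearest other melanocyte lay a median of 8.82 µm away in WT and 7.18 µm in Utx-cKO. Joined at 50 µm, they formed 70 and 65 groups, of which 22 and 31 were single cells and the largest held 8 and 7. Groups of more than 1 held 87.6% and 77.0% of them.

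They lay beside the follicle. Cells with at least 2 transcripts of Lhx2 and Tbx1, both transcription factors of follicle keratinocytes, were within 30 µm of 160 WT melanocytes (90.4%) and 110 Utx-cKO melanocytes (81.5%). The same held for 21.2% and 20.5% of kept cells that were neither melanocytes nor such follicle cells themselves. The median distance to such a cell was 9.77 and 8.26 µm for melanocytes, against 84.0 and 85.3 µm. Of the melanocytes themselves, 27.1% in WT and 22.2% in Utx-cKO held at least 2 transcripts of Lhx2 and Tbx1. The same held for 2.81% and 2.53% of the other kept cells. Cells with at least 5 granular layer transcripts were within 30 µm of 3 WT melanocytes and 1 Utx-cKO melanocyte, which are 1.69% and 0.741%. This compares with 26.2% and 26.5% of kept cells that were neither melanocytes nor such granular cells themselves. Melanocytes beside the upper epidermis were thus few in both sections.

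Melanocytes with under 5% keratinocyte markers, 16 in WT and 20 in Utx-cKO, were described apart. The limit was set with earlier results of these data known, and 2 WT and 4 Utx-cKO melanocytes lay between 3% and 5% and 7 and 4 between 5% and 7%. In WT they came from strips 1, 2 and 3, with 6, 2 and 8 cells, and in Utx-cKO from strips 2, 3 and 4, with 8, 8 and 4. Their median area was 146 µm² in WT and 105 µm² in Utx-cKO, against 44.5 and 41.5 µm² for the remaining melanocytes. Their median distance to a follicle cell was 47.5 and 60.3 µm, against 9.26 and 7.63 µm. Lhx2 had 0 counts in them in both sections.

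Some pigment genes differed between these cells and the rest of the melanocytes. Mlana was 7.23-fold higher in WT (37 and 50 counts) and 6.50-fold higher in Utx-cKO (14 and 19 counts). The 16 WT cells held 42.5% of all Mlana counts in WT melanocytes, and the 20 Utx-cKO cells 42.4%. Ednrb was 6.14-fold and 7.41-fold higher, and Ptgds 3.34-fold and 5.78-fold higher. Vim, vimentin, an intermediate filament of non-epithelial cells, was 2.29-fold and 1.78-fold higher. Kit did not share this: its fold was 0.752 in WT, with a log2 interval of -1.77 to 0.69, and 0.256 in Utx-cKO, from 2 counts. Mitf did not either, with 1.32-fold in WT (log2 interval -0.43 to 1.14) and 0.850-fold in Utx-cKO (-1.49 to 0.81). Pmel was 3.01-fold higher in WT, from 45 counts, and stood at 0.551-fold in Utx-cKO, from 6 counts. A single WT cell held 18 of those 45 Pmel counts and 11 of the 37 Mlana counts.

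The surroundings of these cells differed too. Their neighbours held 11.7% keratinocyte markers in WT and 8.36% in Utx-cKO, against 18.3% and 19.9% around the rest. Pericyte and smooth muscle markers made up 2.06% of their own transcripts in WT, against 0.319% in their neighbours, and 1.18% against 0.682% in Utx-cKO. Sebocyte markers made up 3.42% of their transcripts in Utx-cKO, against 4.78% in their neighbours, and 0.199% in WT. The part of these other cell types in the values was not tested. All counts rest on 1504 transcripts in WT and 936 in Utx-cKO.

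In the WT section 131 of the 136 Mki67, Top2a and Cdk1 transcripts in melanocytes came from strip 3. The 4 cell cycle genes Mki67, Top2a, Cdk1 and Ccnd1 had 196 counts in WT and 37 in Utx-cKO melanocytes, 12096 and 4025 CPM. The log2 ratio was -1.59 (-2.14 to -1.07), and -0.57 (-1.23 to 0.09), from 46 and 37 counts, without WT strip 3. Mki67, a marker of cycling cells, had 0, 968, 8605 and 0 CPM in the WT strips and 0, 0, 600 and 1704 CPM in the Utx-cKO strips. WT strip 3 was the highest, with 73 of the 74 WT counts, and the value of Utx-cKO strip 4 is a single count. In the neighbours Mki67 was high there as well, at 2504 CPM, so that melanocytes exceeded them 3.44-fold (log2 interval 1.38 to 2.16).

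At least 2 transcripts of Mki67, Top2a and Cdk1 together were found in 20 of the 83 melanocytes of WT strip 3 (24.1%). The same held for 90 of the 1228 neighbours there (7.33%) and for no melanocyte of the other 7 strips. These 20 cells, which the limits on Dct with Pmel and on the 3 proliferation genes chose, held 13 Mlana and 13 Kit counts, neither of which chose them. Their keratinocyte share was 15.5%, their median depth 124 transcripts, and all 20 lay within 30 µm of a follicle cell. Ccnd1, cyclin D1, did not share the pattern, with 5602, 5808, 2240 and 4708 CPM in the WT strips. Stmn1, which encodes a microtubule-destabilising protein, did, with 1273, 0, 10374 and 2173 CPM in WT and 490, 1280, 4400 and 1704 CPM in Utx-cKO.

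The deleted gene was measured in melanocytes and beside them. Kdm6a had 81 counts in WT and 29 in Utx-cKO melanocytes, 4999 and 3155 CPM, a log2 ratio of -0.66 (-1.33 to -0.04). The WT strips gave 5602, 3872, 4951 and 4708 CPM, and the Utx-cKO strips 4407, 3199, 3000 and 0 CPM. The ranges overlapped, since Utx-cKO strip 1 was above WT strip 2. In neighbours Kdm6a stood at 3610 and 2809 CPM, a log2 ratio of -0.36 (-0.57 to -0.16). The ratio was below 0 under all 21 alternatives run, but its interval included 0 in 14 of them, and melanocytes thinned to 20 transcripts gave -0.09 (-1.43 to 1.18). Nothing in the labels says whether the Kdm6a probes bind inside the deleted exons, so this level does not check the deletion. With 17.5% and 19.2% keratinocyte markers in the cells, the part of keratinocyte RNA in the Kdm6a level was not tested.

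Of the other chromatin genes Kdm6b had the ratio furthest from 0. Kdm6b, the related H3K27 demethylase, with 97 counts in all, stood at 3209 CPM in WT and 4896 CPM in Utx-cKO melanocytes, a log2 ratio of 0.61 (0.00 to 1.21), and its ratio in neighbours was 0.52 (0.31 to 0.72). Kmt2a, a histone H3K4 methyltransferase, had a ratio of -0.35, with 72 and 32 counts. The methyltransferases Kmt2d and Kmt2c had 0.12 and 0.22, Ezh2, the methyltransferase of H3K27, -0.30, and the deacetylase Hdac1 -0.48. Of the 7 chromatin genes on the panel, 3 reached 100 counts, and Kdm6a of them was past 1.5-fold, beside 18.2% of all 66 genes compared. Kdm6b was past 1.5-fold as well but short of 100 counts.

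Of 10 pigment and regulator genes on the panel, 5 besides Dct and Pmel reached 100 counts, and 0 of these 5 were past 1.5-fold, beside 18.2% of all 66 genes compared, a share that makes 0 of 5 no result about the list. Summed without Dct and Pmel, the list had 574 counts in WT and 353 in Utx-cKO, and its log2 ratio was 0.12 (-0.08 to 0.31). Dct and Pmel, which chose the cells, had 0.50 and -0.09. Mitf stood at 8825 CPM in WT and 9900 CPM in Utx-cKO, a ratio of 0.17 (-0.23 to 0.56). Kit had 0.35 (-0.11 to 0.81), Ednrb 0.21 (-0.36 to 0.77), and Tfap2b, a transcription factor of the AP-2 family, 0.23 (-0.26 to 0.72). The intervals of Kit, Ednrb and Tfap2b leave room for differences of more than 1.5-fold.

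Mlana was lower in Utx-cKO, with a log2 ratio of -0.58 (-1.21 to 0.01). The WT strips gave 7894, 2904, 5658 and 1811 CPM and the Utx-cKO strips 2938, 6398, 2400 and 8518 CPM, so that the ranges overlap. Ptgds had -0.27 (-0.80 to 0.24), where its ratio in neighbours was -0.99 (-1.52 to -0.49). Below 100 counts, Tfap2a had 0.39 (-0.40 to 1.16), the Wnt effector Lef1 0.26 (-0.66 to 1.15) and Irf4, a transcription factor that acts with Mitf on pigment genes, -0.90 (-2.36 to 0.37). Of the niche genes on the panel, Cdh1, E-cadherin, which joins melanocytes to keratinocytes, had -0.43 (-1.11 to 0.21), and Sfrp1, a secreted Wnt antagonist, -0.48 (-1.26 to 0.26).

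**Figure D5:**
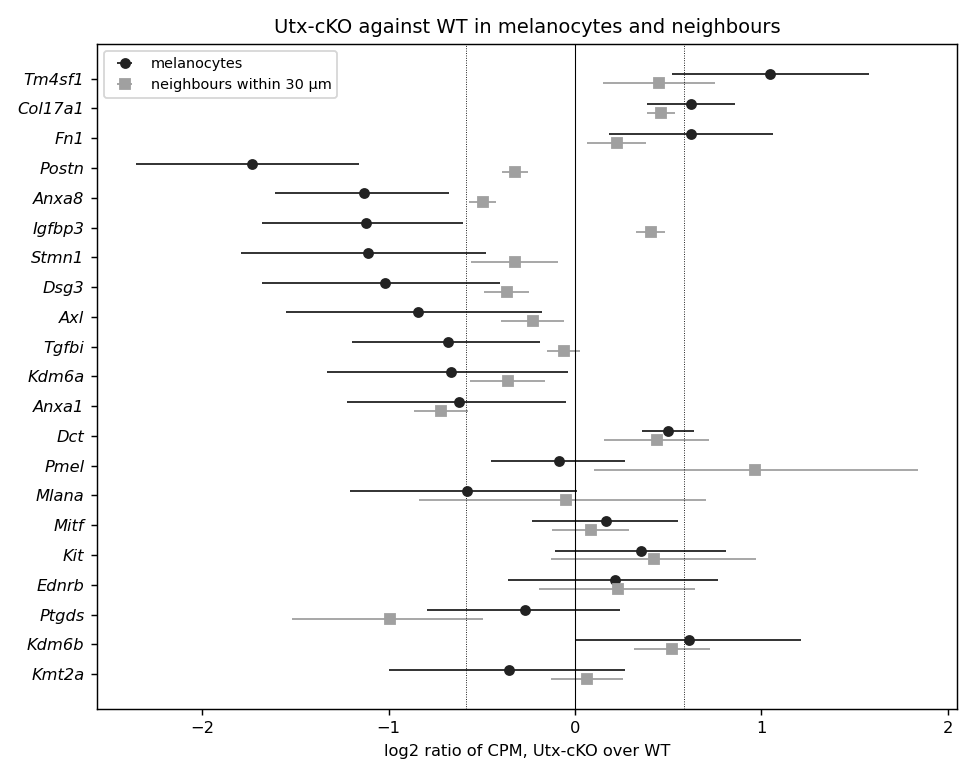
Log2 ratios of CPM, Utx-cKO over WT, in melanocytes (black) and their neighbours within 30 µm (grey) with 95% counting intervals. Dotted lines mark 1.5-fold. The first 12 genes are those past 1.5-fold in melanocytes, and the intervals of Mitf, Kit, Ednrb, Ptgds and Mlana in melanocytes include 0.

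Across all genes, 66 reached 100 counts over the melanocytes of both sections. Of these, 3 (4.55%) were at least 1.5-fold higher in Utx-cKO and 9 (13.6%) at least 1.5-fold lower, with the interval on 1 side of 0. WT melanocytes held 16204 transcripts and Utx-cKO melanocytes 9192, so genes high in WT passed the minimum on summed counts more easily. The 2 numbers therefore give no balance of higher and lower genes. The split depended on the scaling: 1 was higher and 25 lower by mean counts per cell, 6 and 6 without the 10 most abundant genes in the totals, and 8 and 13 with cells thinned to 20 transcripts. Among neighbours, which are more numerous, 292 genes reached the minimum, of which 11% were higher and 7.19% lower. Neighbours adjoin the melanocytes, and the difference between the 2 sets of ratios was not tested.

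Tm4sf1 was the highest in Utx-cKO, at 7398 against 3579 CPM, a log2 ratio of 1.05 (0.52 to 1.58), and 0.45 (0.15 to 0.75) in neighbours. The WT strips gave 3820, 4840, 3890 and 1811 CPM and the Utx-cKO strips 10774, 9597, 6000 and 1704 CPM. The first 3 Utx-cKO strips were above all WT strips, and the fourth, with 8 melanocytes and 1 count, was below them. Col17a1, a hemidesmosome collagen of basal keratinocytes, had 0.62 (0.39 to 0.86) and 0.46 in neighbours, and it is 1 of the markers of the keratinocyte signal. Fn1, fibronectin, had 0.62 (0.18 to 1.06), and 0.02 without Utx-cKO strip 3, at 11600 CPM the highest strip.

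Postn was the lowest in Utx-cKO, at 3155 against 10491 CPM, a log2 ratio of -1.73 (-2.35 to -1.16), where neighbours had -0.32 (-0.39 to -0.25). The WT strips gave 18844, 9681, 7309 and 8692 CPM and the Utx-cKO strips 2938, 4479, 2400 and 6814 CPM, so that all WT strips were above all Utx-cKO strips. Of the 66 genes, only Postn and Tpi1, triosephosphate isomerase of glycolysis, were lower in all Utx-cKO strips than in any WT strip (3.03%), and none was higher in all. Tpi1 had a log2 ratio of -0.50 (-1.12 to 0.09). Postn was also the gene furthest below the neighbours' level, and the part of transcripts from adjoining fibroblasts was not tested.

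The other genes that were lower were Anxa8, Igfbp3, Stmn1, Dsg3, Axl, Tgfbi, Kdm6a and Anxa1. Anxa8, an annexin, had -1.13 (-1.61 to -0.68), and -0.50 in neighbours. Igfbp3, which binds insulin-like growth factors, had -1.12 (-1.68 to -0.60), whereas its ratio in neighbours was 0.41 (0.33 to 0.49). The Igfbp3 strips did not separate, with 9677, 22265, 8959 and 3260 CPM in WT and 1469, 4479, 4800 and 6814 CPM in Utx-cKO. Stmn1 had -1.11 (-1.79 to -0.48). Dsg3, a desmosomal cadherin, had -1.02, and Axl, a receptor tyrosine kinase, -0.84. Tgfbi had -0.68 and Anxa1 -0.62.

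Stmn1 and Anxa1 changed sign without WT strip 3, to 0.99 (-0.08 to 2.15) and 0.35 (-0.45 to 1.18). Dsg3 had -0.49 (-1.27 to 0.28) without it, Axl -0.51 (-1.34 to 0.30) and Tgfbi -0.46 (-1.06 to 0.14). These ratios stayed below 0 and within their intervals with all strips, but their intervals then included 0. WT strip 3 held 8483 of the 16204 transcripts of WT melanocytes, so leaving it out widens intervals. Postn, Igfbp3 and Anxa8 kept intervals below 0 without it, with -2.15 (-2.79 to -1.55), -1.13 (-1.74 to -0.54) and -0.98 (-1.52 to -0.46). Tm4sf1 had 1.19 (0.51 to 1.92) without it, and Kdm6a -0.68 (-1.42 to 0.05). The keratinocyte share had a log2 ratio of 0.14 (0.05 to 0.22) between the sections, and 0.011 (-0.11 to 0.13) without Utx-cKO strip 3.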

How the data were processed

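Per the labels' protocols, 5 µm paraffin sections were probed with a custom 480-gene Xenium panel. The authors deposited 1 row per decoded transcript with its position, cell, nucleus overlap and a quality score, and per-cell transcript counts. Nothing used here names the decoding and segmentation software. Rows with a score of at least 20 were counted per cell, without negative control probes. CPM are counts per 1000000 panel transcripts of the summed cells. With Python 3.11.15, numpy 2.4.6, pandas 2.3.3 and scipy 1.17.1, Poisson, Clopper-Pearson and conditional binomial 95% intervals were computed. No doublet caller was run, and alternatives varied the quality, cell, marker and gene minimums, scaling, thinning, neighbour radius and strips. The computation of ratios and intervals was checked on simulated independent Poisson counts. These follow the model that the intervals assume and leave out clustering in cells and strips, so they do not test that model.

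Named genes were the 10 highest and 10 lowest past 1.5-fold with the interval on 1 side of 0, the 15 furthest above neighbours, and every melanocyte marker and regulator on the panel. Tpi1, the genes below neighbours, Stmn1's strips, the cells under 5% keratinocyte markers and the 20 cells with proliferation transcripts were picked after their values were seen. The melanocytes, as defined, and the gene lists were chosen with earlier results of these data known. Shares over the nucleus rest on the deposited nucleus overlap of each transcript, and the nucleus outlines themselves were not read.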

Additional observations from a re-analysis of the deposited data

How the results depend on the processing

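No paired analysis was possible because there was 1 section per genotype. Of 140 recomputed comparison results, 112 stayed within the counting interval or 1.5 times the count, 27 moved and 1 reversed, and of 404 values of named genes 7 reversed. Leaving out strips, and every alternative for the cell cycle result, was chosen after seeing the data, and apart from what the settings remove, the causes were not tested. Genes higher in Utx-cKO numbered 6 in the nucleus alone, 6 with Dct+Pmel of at least 2, 6 without the 10 most abundant genes in the totals, 8 thinned to 20 transcripts, 1 by mean counts per cell and 10 at a minimum of 50 counts. Lower genes numbered 5 at quality 30, where 39 genes remained, 25 by mean counts per cell, 20 at a minimum of 50, and 3 with Dct+Pmel of at least 5 or with both genes. Genes above neighbours numbered 4 at quality 30, 5 with Dct+Pmel of at least 5 and 2 with both genes. For the same 2 settings the keratinocyte ratio was 0.25 and 0.37. With keratinocyte markers under 5%, 2 genes reached the minimum, Dct and Vim. Dct, which chose the cells, was higher in Utx-cKO, and 0 were lower. Vim alone could be set against neighbours, and it was not above them by the 2-fold rule. Under that setting the cell cycle ratio was 0.27 from 4 and 3 counts, Fn1 -0.83, Anxa8 1.68 and Stmn1 0.68. Over neighbours the smaller of the sections' ratios was -0.17 for Phlda1 and -0.81 for Tm4sf1, each from 1 count. Without WT strip 3 the share ratio was -0.20, the cell cycle ratio -0.57, Stmn1 0.99 and Anxa1 0.35, with 1 gene higher, 3 lower (38 compared) and 3 above neighbours. Without WT strip 1, 5 genes were above neighbours, and without Utx-cKO strip 3 also 5, with a keratinocyte ratio of 0.011. The Kdm6a ratio was below 0 under all 21 alternatives run, and its interval included 0 in 14. Depth limits single cells: with 79 and 64 transcripts per melanocyte, a gene not seen in a cell is not shown to be off.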

Other observations

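Melanocytes held only part of the transcripts of the genes that chose them. Of all Dct transcripts, 56.0% in the WT section and 51.2% in the Utx-cKO section lay in melanocytes, 13.9% and 12.4% in their neighbours, 19.1% and 25.4% in other kept cells, 2.49% and 6.20% in cells under 20 transcripts, and 8.51% and 4.88% outside cells. Of Pmel transcripts, 53.8% and 33.9% lay in melanocytes and 29.3% and 39.5% in other kept cells.

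Melanocytes with and without Pmel differed in other pigment genes in the WT section. Mlana stood at 7649 CPM (5962 to 9664) in the 89 cells with Pmel and at 2411 CPM (1404 to 3860) in the 88 without, and Ednrb at 5900 and 2269 CPM. In the Utx-cKO section Mlana stood at 4398 CPM (2756 to 6659) in the 63 cells with Pmel and at 2625 CPM (1311 to 4697) in the 72 without, and Ednrb at 5598 and 4296 CPM, with overlapping intervals. Kit stood at 6337 and 5672 CPM in WT and at 9596 and 5489 CPM in Utx-cKO. Pmel is among the genes that chose the cells. In WT the 89 cells with Pmel held 9152 transcripts and the 88 without 7052. Krt15 stood at 54196 and 71327 CPM in WT, and at 76370 and 64678 CPM in Utx-cKO. Of the 16 WT cells with under 5% keratinocyte markers, which held 42.5% of the Mlana counts, 11 carried Pmel. The part of depth and keratinocyte signal in the differences was not tested.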
